A study of Sus scrofa with 18 samples.

Results

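The 10 genes described here mark the endothelial cells that line blood vessels or drive vessel growth. They are PECAM1, CDH5, VWF, KDR, FLT1, TEK, TIE1, ENG, VEGFA and NOS3, chosen by name. They were found by pig gene symbol or human homolog name in the authors' annotation, which gave 26 probe sets for 9 of the 10 genes, among 9865 genes named on the array. No probe set carried the name TIE1, which is not analysed here. A probe set is the group of short array probes that reports 1 transcript, and a gene with several probe sets was represented by the one of highest mean signal.

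The RNA was from muscle of female piglets weighing 26.9 kg on average, studied as a model of acute quadriplegic myopathy, the muscle weakness of intensive care. All animals were anaesthetised, ventilated and immobile for 5 days, with pancuronium, a neuromuscular blocker, infused at 0.1 mg/kg/h, the corticosteroid betamethasone given at 0.1 mg/kg 2 times a day, and Escherichia coli endotoxin infused at 36 µg/kg/h for 1 h. The groups were masseter (a chewing muscle) at day 1 and day 5, with 5 arrays each from the same 5 animals, and biceps femoris (a thigh muscle) at day 1 and day 5, with 4 arrays each whose labels name no animals. The day 1 arrays are the controls by their titles, although other label fields call those of biceps femoris treated, and a breed tag of wild boar stands beside protocols that name domestic piglets. No arrays of untreated animals kept for the same time were among those analysed, so time and treatment cannot be told apart.

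Endothelial cells hold together through the junction proteins encoded by PECAM1 and CDH5, and they store and secrete the platelet-binding protein encoded by VWF. They sense VEGFA, a growth factor that muscle fibres and other cells release, through the receptors encoded by KDR and FLT1, and angiopoietins through TEK. ENG encodes a coreceptor for ligands of the TGF-beta family, and NOS3 makes the nitric oxide that relaxes vessels. In skeletal muscle, capillaries lie along the fibres, and VEGFA is known as a main signal that maintains them.

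Values are log2 intensities, so a difference of 1 is 2-fold. The authors had normalized the muscles apart, so levels were not tested between muscles. Per array, the spike-in control BioC was between 8.87 and 9.13 in day 1 replicates 1 to 3 of biceps femoris, 7.97 in day 1 replicate 4, and between 7.43 and 7.78 at day 5. The 28S ribosomal RNA probe set was between 11.7 and 12.1 in biceps femoris at day 1 and between 12.1 and 13.1 at day 5. The actin 3′ signal minus the 5′ signal was 2.05 in biceps femoris day 5 replicate 1, against 1.04 to 1.15 in the other day 5 arrays and 1.39 to 1.72 at day 1. On the masseter arrays BioC ranged from 9.69 to 10.2 and the actin difference from 2.27 to 2.71. Of 9 myofibre genes, 8 were measured, with a mean log2 signal of 13.9 to 14.4 on the masseter arrays, 13.78 to 13.96 in biceps femoris at day 1 and 12.22 to 13.34 at day 5. The median change of these 8 genes in biceps femoris was -0.08 and the lowest -3.82. The lower mean there thus rests on part of the genes.

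In masseter, 1 of 9 genes, VWF, passed the test and was higher at day 5, and in biceps femoris 2 of 9, PECAM1 and CDH5, passed and were lower. The test was limma's moderated test with Benjamini-Hochberg adjustment over all 23999 probe sets, called at an adjusted p under 0.05. Over all probe sets 13.8% were called in masseter (7.31% higher and 6.51% lower) and 17.2% in biceps femoris (9.89% higher and 7.27% lower). With 1 probe set for each named gene, 9.65% were higher and 8.36% lower in masseter, and 13.4% were higher and 9.66% lower in biceps femoris. In either direction that is 1777 of the 9865 genes in masseter and 2279 in biceps femoris, shares near those of the members, so the counts of 1 and 2 are no result about these genes in particular. An unadjusted p under 0.05 was reached by 28.9% of all probe sets in masseter, 29.7% in biceps femoris and 12.3% for the difference between the muscles. These shares were not counted with 1 probe set for each named gene. The median change of the 9 genes was -0.17 in masseter and -0.22 in biceps femoris, against -0.02 in both muscles over all named genes. Of the 9 changes, 7 were negative in masseter and 8 in biceps femoris. Over all 26 probe sets of these genes, 22 changes were negative in masseter and 17 in biceps femoris. In these whole-muscle samples, fewer cells of a type and less RNA per cell cannot be told apart.

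**Figure D1:**
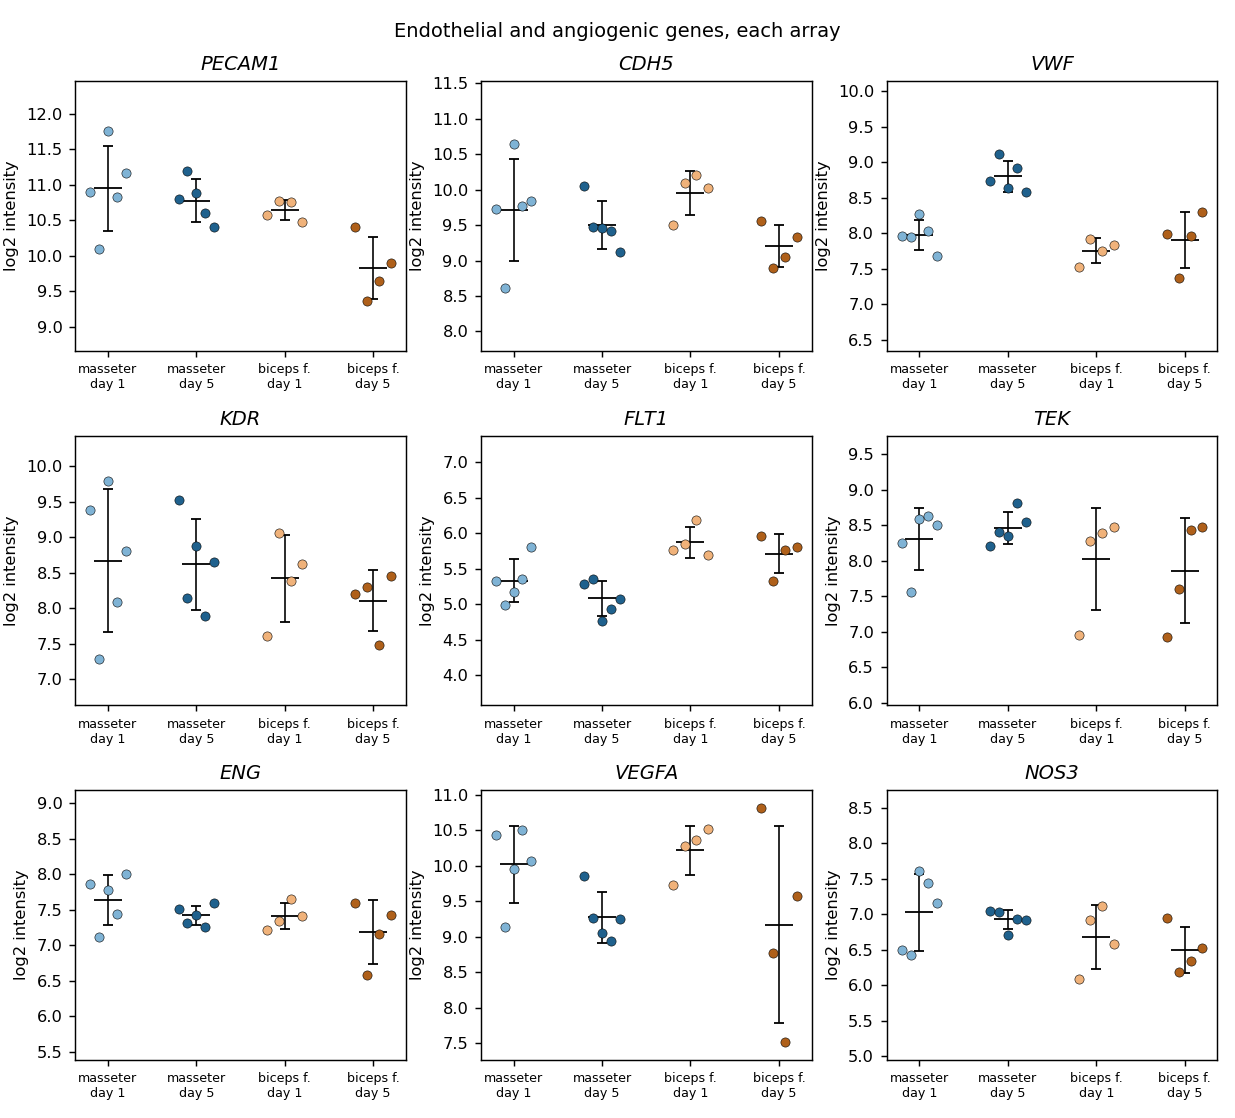
Log2 intensity of the representative probe set of each gene on every array (points), with the group mean and SD (black bars), for 5 arrays per masseter group and 4 per biceps femoris group; each panel spans the same range of log2 units. VWF in masseter and PECAM1 in biceps femoris are the genes whose day 1 and day 5 arrays do not overlap.

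PECAM1, an adhesion molecule of endothelial junctions that platelets and leukocytes carry too, was lower at day 5 in biceps femoris. It read 10.57, 10.77, 10.75 and 10.47 at day 1 and 10.40, 9.36, 9.65 and 9.89 at day 5 there. All day 5 arrays were below all day 1 arrays, with day 5 replicate 1 only just below. PECAM1 fell by 0.82 (SE 0.21, 1.76-fold lower, adjusted p = 0.0276 by limma). A second PECAM1 probe set also separated the days, with a change of -0.77 (SE 0.19, adjusted p = 0.0234 by limma). Day 5 arrays were all below day 1 arrays for 10.2% of all probe sets in biceps femoris and all above for 12.0%. In masseter, PECAM1 was 10.89, 10.09, 11.76, 10.83 and 11.17 at day 1 and 10.80, 11.19, 10.88, 10.60 and 10.40 at day 5. These groups overlapped, and the change of -0.17 (SE 0.27, adjusted p = 0.712 by limma) was smaller than its error. PECAM1 was lower at day 5 in 4 of the 5 animals.

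CDH5, which encodes VE-cadherin, the cadherin that joins endothelial cells to each other, was also lower at day 5 in biceps femoris. Its day 1 values there were 9.50, 10.10, 10.20 and 10.02, and its day 5 values 9.56, 8.90, 9.05 and 9.33. The groups overlapped only through day 1 replicate 1, the lowest day 1 array, and day 5 replicate 1, the highest day 5 array. CDH5 fell by 0.75 (SE 0.19, 1.68-fold lower, adjusted p = 0.0309 by limma), and its second probe set fell by 0.80 (SE 0.23, adjusted p = 0.0443 by limma). In masseter CDH5 was 9.72, 8.62, 10.64, 9.77 and 9.84 at day 1 and 10.05, 9.47, 9.46, 9.41 and 9.12 at day 5. The day 1 arrays spanned both above and below the day 5 arrays, with a change of -0.21 (SE 0.31, adjusted p = 0.694 by limma).

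The biceps femoris calls of PECAM1 and CDH5 were close to the threshold. PECAM1 was no longer called without day 1 replicate 1 (change -0.84, adjusted p = 0.0581 by limma), 2 (-0.77, 0.0769) or 3 (-0.78, 0.0775), nor without day 5 replicate 3 (-0.76, 0.0757) or 4 (-0.84, 0.0581). CDH5 was no longer called without day 1 replicate 2 (change -0.70, adjusted p = 0.0850 by limma), 3 (-0.66, 0.0875) or 4 (-0.72, 0.0707), nor without day 5 replicate 2 (-0.64, 0.0659), 3 (-0.69, 0.0823) or 4 (-0.79, 0.0566). With the high and low BioC arrays as a block, PECAM1 changed by -0.64 (SE 0.34, adjusted p = 0.369 by limma) and CDH5 by -0.81 (SE 0.32, adjusted p = 0.228 by limma). Only day 1 replicate 4 represents day 1 among the arrays of low BioC, and the part of BioC, 28S RNA and the actin ratio in these changes was not tested. The authors' deposited table gives the same changes for PECAM1 and CDH5, -0.82 and -0.75, with adjusted p-values of 0.0282 and 0.0313.

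VWF, which encodes the von Willebrand factor that endothelium stores and releases to bind platelets, was the gene that rose in masseter. It read 7.96, 7.94, 8.28, 8.03 and 7.68 at day 1 and 8.73, 9.12, 8.64, 8.92 and 8.59 at day 5. All day 5 arrays were above all day 1 arrays, and VWF was higher at day 5 in each of the 5 animals, by 0.37 to 1.18. The rise was 0.82 (SE 0.13, 1.77-fold, adjusted p = 0.00352 by limma). Such separation upwards was seen for 5.58% of all probe sets in masseter, and downwards for 5.82%.

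The other VWF probe sets did not follow it. The second had a masseter change of -0.23 (SE 0.085, adjusted p = 0.0941 by limma) with all day 5 arrays below day 1, and the third had a change of -0.10 (SE 0.099, adjusted p = 0.545 by limma). With the 3 probe sets averaged, VWF changed by 0.16 (SE 0.069, adjusted p = 0.132 by limma), so the call rests on the brightest one. In biceps femoris VWF was 7.52, 7.92, 7.75 and 7.83 at day 1 and 7.99, 7.36, 7.96 and 8.30 at day 5. Those groups overlapped, with a change of 0.15 (SE 0.19, adjusted p = 0.661 by limma). Platelets and their precursors also carry VWF, and of 7 platelet genes 4 were measured, none of which passed limma's test in either muscle or reached an unadjusted p under 0.05. The platelet genes changed in masseter by -0.18 to 0.91, with a median of 0.00. The summed level of the platelet genes lay between 8.16 and 8.53 on the log2 scale in masseter at day 1 and between 8.03 and 8.98 at day 5, and PPBP, a platelet chemokine, was among the lowest 25% of probe sets on every array. The part of platelet RNA in the VWF change was not tested.

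**Figure D2:**
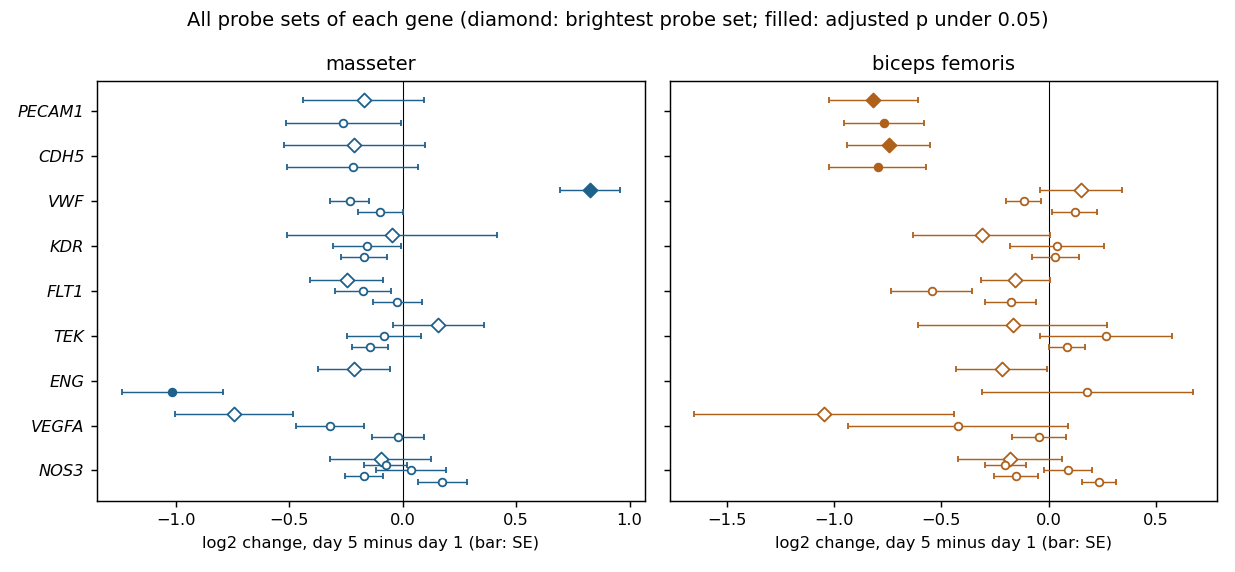
Log2 change from day 1 to day 5 of all 26 probe sets, by gene and muscle (x axis; bars are SE, diamonds the brightest probe set of a gene, filled symbols an adjusted p under 0.05). Both probe sets of PECAM1 and of CDH5 lie left of 0 in biceps femoris, whereas the VWF probe sets lie on both sides of 0 in masseter.

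VEGFA, the ligand of the set, had lower means at day 5 in both muscles without passing the test. In masseter it read 10.43, 9.13, 9.95, 10.51 and 10.07 at day 1 and 9.86, 9.27, 9.05, 8.94 and 9.26 at day 5. Replicate 2 alone was low at day 1, and VEGFA was lower at day 5 in 4 of the 5 animals. The change was -0.74 (SE 0.26, adjusted p = 0.0826 by limma), with a 95% interval from -1.32 to -0.17 before adjustment. Without day 1 replicate 2 the change was -0.97 (SE 0.19, adjusted p = 0.0130 by limma), and without day 5 replicate 1 it was -0.89 (SE 0.25, adjusted p = 0.0327 by limma). Of the 10 runs without a single array, only these 2 called VEGFA. The smallest change among the runs was -0.62 (SE 0.26, adjusted p = 0.181 by limma), without day 1 replicate 4. In biceps femoris VEGFA was 9.73, 10.28, 10.36 and 10.51 at day 1 and 10.82, 8.78, 7.52 and 9.57 at day 5.

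Day 5 replicate 1 of biceps femoris was thus above every day 1 array in VEGFA, while the other day 5 arrays were below every day 1 array. The change was -1.05 (SE 0.60, adjusted p = 0.296 by limma), with a 95% interval from -2.43 to 0.33. Without day 5 replicate 3 the change of VEGFA was -0.50 (SE 0.45, adjusted p = 0.538 by limma). Without day 5 replicate 1 it was -1.60 (SE 0.44, adjusted p = 0.0426 by limma), the only 1 of 8 such runs that called VEGFA. That array also has the high actin 3′ minus 5′ value given above, and the part of this in its VEGFA level was not tested. A second VEGFA probe set gave -0.32 (SE 0.15) in masseter and -0.42 (SE 0.51) in biceps femoris, and the third, among the lowest 25% of probe sets on every array, -0.02 and -0.05.

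The receptors for VEGFA and the angiopoietins showed no called change. KDR, the main signalling receptor for VEGFA, ranged from 7.28 to 9.79 in masseter at day 1 and from 7.90 to 9.53 at day 5, with a change of -0.05 (SE 0.46). In biceps femoris it ranged from 7.61 to 9.07 and from 7.48 to 8.45, with a change of -0.31 (SE 0.32). The KDR probe set used is listed under a pig locus without a standard symbol, which the authors' table describes as a vascular endothelial growth factor gene, and it is named KDR by its homolog. The others, listed as KDR in pig, had group means between 3.81 and 5.31 and were not called in either muscle. FLT1, a receptor known to hold VEGFA without much signal, ranged over all arrays from 4.76 to 5.80 in masseter and from 5.33 to 6.19 in biceps femoris. Its changes were -0.25 (SE 0.16) and -0.16 (SE 0.16). A second FLT1 probe set had all day 5 arrays below day 1 in biceps femoris, with a change of -0.54 (SE 0.19, adjusted p = 0.0875 by limma).

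TEK, the receptor for angiopoietins, read 8.25, 7.57, 8.60, 8.63 and 8.50 in masseter at day 1 and 8.20, 8.42, 8.35, 8.81 and 8.55 at day 5, a change of 0.16 (SE 0.20). In biceps femoris it read 6.96, 8.28, 8.39 and 8.48 at day 1 and 6.93, 7.61, 8.44 and 8.47 at day 5, a change of -0.17 (SE 0.44). Replicate 1 was the lowest array of TEK on both days of that muscle. The sign of the TEK change turns in both muscles when its probe sets are averaged, to -0.02 in masseter and 0.06 in biceps femoris, and it also turns in masseter without day 1 replicate 2 (-0.03) and in biceps femoris without day 5 replicate 1 (0.14).

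ENG, the coreceptor of the TGF-beta family, ranged from 7.12 to 8.0 in masseter at day 1 and from 7.27 to 7.60 at day 5, with a change of -0.22 (SE 0.16), and the day 5 value was lower in 4 of the 5 animals. In biceps femoris it ranged from 7.22 to 7.66 and from 6.58 to 7.59, also with a change of -0.22 (SE 0.21). A second probe set that the homolog column names ENG fell in masseter by 1.02 (SE 0.22, adjusted p = 0.0141 by limma), but the authors' table describes its pig locus, LOC100157017, as resembling glyoxylate reductase, so it was not read as ENG. NOS3, the endothelial nitric oxide synthase, ranged from 6.42 to 7.61 in masseter at day 1 and from 6.70 to 7.04 at day 5, with a change of -0.10 (SE 0.22). In biceps femoris it ranged from 6.09 to 7.12 and from 6.19 to 6.94, with a change of -0.18 (SE 0.24). A further NOS3 probe set had all day 5 arrays above day 1 in biceps femoris, with a change of 0.24 (SE 0.079, adjusted p = 0.0781 by limma). The remaining NOS3 probe sets changed there by -0.20 to 0.09, and no NOS3 probe set was called in either muscle. Adjusted p-values of the representative probe sets of KDR, FLT1, TEK, ENG and NOS3 were between 0.343 and 0.962 by limma in both muscles, and their 95% intervals do not exclude changes of up to -1.17 (TEK in biceps femoris).

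**Figure D3:**
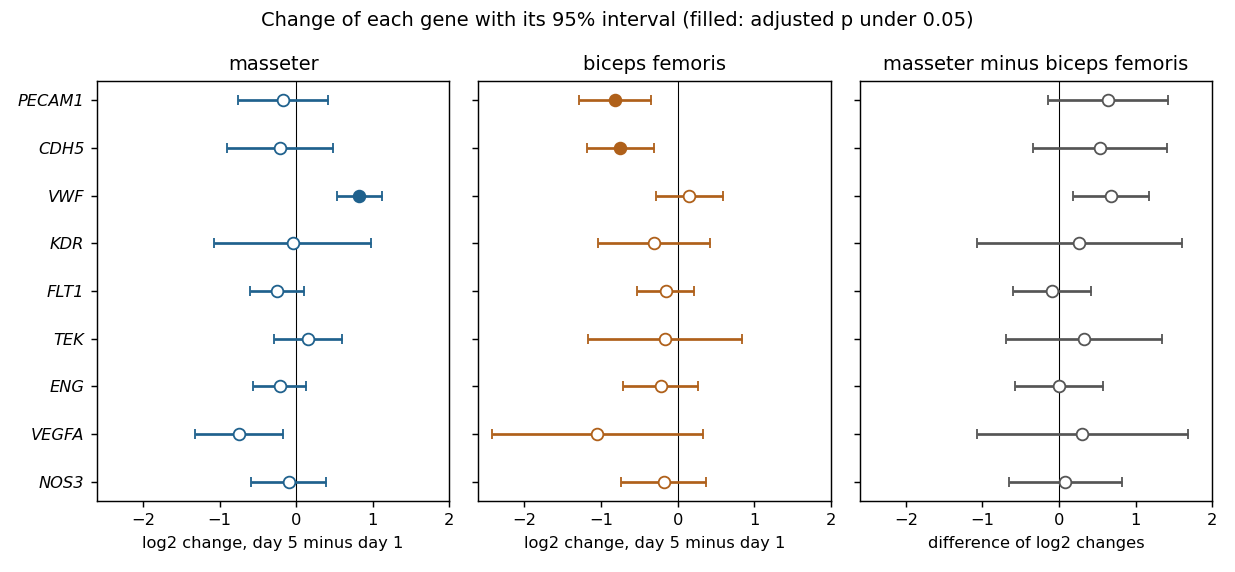
Log2 change of each gene in masseter and in biceps femoris, and the difference of both changes (x axes), with 95% intervals; filled symbols mark an adjusted p under 0.05. VWF in masseter and PECAM1 and CDH5 in biceps femoris are filled, and no difference between the muscles is.

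The difference of the changes, masseter minus biceps femoris, was tested in a fit of all 18 arrays. No gene of the 9 was called by limma, and 1, VWF, had an unadjusted p under 0.05. Over all probe sets 0.200% were called. For VWF the difference was 0.67 (SE 0.23, adjusted p = 0.239 by limma), with a 95% interval from 0.18 to 1.17 before adjustment. For PECAM1 it was 0.65 (SE 0.37, adjusted p = 0.511 by limma), with an interval from -0.14 to 1.43, and for CDH5 0.53 (SE 0.41, adjusted p = 0.654 by limma), with an interval from -0.34 to 1.41. The 3 called changes were therefore not shown to differ between muscles. Arrays of both muscles and days entered that fit as independent samples.

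Most endothelial genes were high or low together on single arrays of masseter at day 1 and of biceps femoris on both days. Over the 8 members other than VEGFA, masseter day 1 replicate 2 was the lowest array of its group for 7 genes and replicate 3 the highest for 5. In biceps femoris, day 1 replicate 1 was the lowest for 6 genes and day 5 replicate 2 the lowest for 6. Day 5 replicate 1 there was the highest for 5 and the lowest for 1, TEK. In masseter at day 5 no array was the highest or the lowest for more than 3 genes. The mean log2 value of these 8 genes ranged from 7.50 to 8.70 in masseter at day 1 and from 8.10 to 8.39 at day 5, with group means of 8.20 ± 0.44 and 8.20 ± 0.13 (SD, n = 5). In biceps femoris it ranged from 7.65 to 8.31 at day 1 and from 7.45 to 8.02 at day 5, with means of 8.09 ± 0.30 and 7.79 ± 0.26 (SD, n = 4). The day groups overlapped in both muscles.

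**Figure D4:**
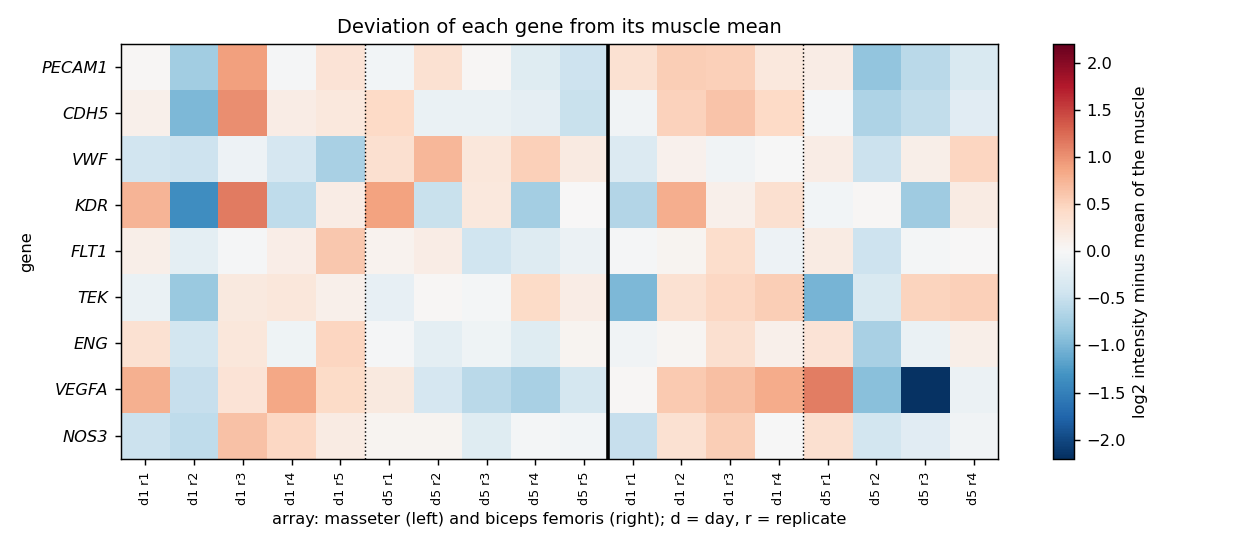
Deviation of each gene from its mean over the arrays of the same muscle, in log2 units (colour), for every array (columns; masseter left and biceps femoris right of the thick line, dotted lines between the days). Masseter day 1 replicates 2 and 3 are low and high across most rows, and VEGFA is low in biceps femoris day 5 replicate 3.

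The genes whose values were most like the mean of the 8 endothelial members over the 18 arrays, after centring within each muscle, were RALB (Pearson r = 0.91), CLEC14A (0.90), ESAM (0.88), IFI16 (0.87) and TM4SF13 (0.86). CLEC14A and ESAM encode endothelial surface proteins. For VEGFA the closest were DNAJA4 (0.86), HNRPA3 (0.85), ETV5 (0.84), VPS4B (0.84) and SLC31A1 (0.84). These are descriptions across arrays that share animals and normalization, picked as the highest of all named genes. DNAJA4, a cochaperone, fell in masseter by 1.64 (adjusted p = 0.00291 by limma), and IFI16, a DNA sensor, fell in biceps femoris by 0.93 (adjusted p = 0.00622 by limma).

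Other genes of the same biology were read from 8 gene lists, counted with the same test and 1 probe set per gene. The count of each list is to be read beside the shares of all named genes. These were 9.65% higher and 8.36% lower in masseter, and 13.4% higher and 9.66% lower in biceps femoris. Of the named list genes, 8 of 29 calls in masseter were lost when some single array was left out, namely those of ETS1, ETS2, CAV1, P4HA1, FOXO1, COL18A1, TYROBP and TNNT1, and 10 of 37 in biceps femoris, those of NRP2, VEGFB, BNIP3, DLL4, TGFBR1, SMAD1, CNN1, NOTCH3, TNNT1 and MYH7. With the BioC arrays as a block, 27 of the 37 biceps femoris calls were lost, and those of CAV1, CAV2, RASIP1, HIF1AN, PGK1, SMAD1, PPARGC1B, COL4A2, TIMP2 and MFAP5 were kept. With all probe sets of a gene averaged, the masseter calls of CAV1, ETS1, PTGS1, SP1, FOXO1, TNNT3 and DES and the biceps femoris calls of NRP2, DDAH1, TGFBR1, SP1 and TIMP2 were lost.

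The further endothelial genes include transcription factors, junction proteins and caveolins. Of 45 further endothelial genes, 33 were measured. In masseter 2 rose and 2 fell (median change 0.00), beside 9.65% and 8.36% of all named genes. In biceps femoris none rose and 5 fell (median -0.28), beside 13.4% and 9.66%. The caveolins CAV1 and CAV2, which shape the small membrane pits of endothelial cells and are made by other cells too, fell in both muscles. CAV1 fell by 0.48 (SE 0.14) in masseter and by 0.96 (SE 0.11) in biceps femoris, and CAV2 fell by 0.73 (SE 0.16) and 0.85 (SE 0.14), with adjusted p-values between 7.14e-04 and 0.0432 by limma. The CAV1 call in masseter was not shared by its other 3 probe sets, whose adjusted p-values there were between 0.108 and 0.780.

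In biceps femoris, RASIP1, which acts in vessel lumen formation, fell by 1.26 (SE 0.15, adjusted p = 0.00105 by limma), and ADGRL4, an endothelial adhesion receptor, fell by 0.58 (SE 0.11, adjusted p = 0.00958 by limma). A second RASIP1 probe set had changes of opposite sign, 0.55 in masseter (adjusted p = 0.0230 by limma) and 0.27 in biceps femoris (adjusted p = 0.0915). The fifth gene that fell there was the endothelial transcription factor gene ERG, at -0.86 (SE 0.24, adjusted p = 0.0436 by limma), which is outside the naming rule and was named after its value was seen. The transcription factor genes ETS1 and ETS2 rose in masseter by 0.99 (SE 0.29) and 1.37 (SE 0.36), with adjusted p-values of 0.0452 and 0.0298 by limma. Blocking on the animal ended the ETS1 call (adjusted p = 0.0524 by limma).

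Of 17 VEGF and angiopoietin genes beyond the members, 13 were measured, and none was called by limma in masseter, where 4 of the 13 had an unadjusted p under 0.05, against 28.9% of all probe sets. In biceps femoris 1 rose and 2 fell. NRP2, a VEGF coreceptor, fell by 0.91 (SE 0.23, adjusted p = 0.0290 by limma), and VEGFB, a second ligand of FLT1, fell by 0.66 (SE 0.19, adjusted p = 0.0482 by limma). ANGPT1, the ligand that activates TEK, cannot be given a direction. Its brightest probe set, named ANGPT1 by homolog only, rose by 0.57 (SE 0.10, adjusted p = 0.00631 by limma), whereas the others, listed as ANGPT1 in pig, changed by -1.67 (adjusted p = 4.83e-04) and -0.65 (adjusted p = 0.00813). In masseter the first of those also fell, by 1.74 (adjusted p = 0.0319 by limma).

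Of 15 genes of endothelial activation, which inflamed endothelium is known to raise, all were measured. By their brightest probe sets limma called none in either muscle. A further probe set of 1 of these genes was called higher in biceps femoris. An unadjusted p under 0.05 was reached by 3 of 15 in masseter and 0 of 15 in biceps femoris, below the 28.9% and 29.7% of all probe sets. Those shares are over all probe sets, whereas the list holds 1 probe set per gene. The median change of the 15 genes was 0.47 in masseter, where 3 changes were negative, and 0.11 in biceps femoris, where 4 were. Their changes ranged from -0.20 to 1.76 in masseter and from -0.71 to 1.67 in biceps femoris. The adhesion molecule genes SELE and ICAM1 are outside the naming rule and were picked after their values were seen. SELE was 4.22 ± 1.41 at day 1 and 4.68 ± 1.17 at day 5 in masseter (SD, n = 5), and 3.66 ± 0.35 and 4.10 ± 1.02 in biceps femoris (SD, n = 4). ICAM1, whose change was among the 3 negative ones of the list in masseter, was 8.15 ± 1.88 and 7.96 ± 1.25 there. The SD of both was larger than the difference between the days in masseter.

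Of 20 genes of nitric oxide, endothelin and vascular tone, 19 were measured, of which 2 rose and 2 fell in masseter and 4 fell in biceps femoris (medians -0.06 and -0.13). DDAH1, which breaks down an inhibitor of nitric oxide synthases, fell by 1.09 (SE 0.21, adjusted p = 0.00773 by limma) in masseter and by 2.03 (SE 0.30, adjusted p = 0.00286 by limma) in biceps femoris. Its day 5 arrays were below day 1 in both muscles. A second DDAH1 probe set changed by -0.40 in masseter (adjusted p = 0.0316 by limma) and by -0.09 in biceps femoris (adjusted p = 0.916 by limma). PTGS1, a cyclooxygenase of prostaglandin synthesis, fell by 0.61 (SE 0.093) and 1.29 (SE 0.28), with adjusted p-values of 0.00284 and 0.0150 by limma, while its other probe sets showed changes between -0.18 and 0.24. In biceps femoris both subunit genes of the nitric oxide receptor guanylate cyclase fell, GUCY1A1 by 0.88 (SE 0.14, adjusted p = 0.00372 by limma) and GUCY1B1 by 0.78 (SE 0.16, adjusted p = 0.0106 by limma). In masseter PTGIS, the prostacyclin synthase gene, rose by 0.70 (SE 0.16, adjusted p = 0.0180 by limma) and HMOX1, haem oxygenase, by 1.44 (SE 0.32, adjusted p = 0.0160 by limma).

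Of 26 genes of oxygen sensing and HIF targets, 23 were measured, of which 2 rose and 3 fell in masseter and 3 rose and 3 fell in biceps femoris (medians -0.05 and 0.00). The glycolytic gene PGK1 fell by 1.53 (SE 0.27) in masseter and by 1.72 (SE 0.24) in biceps femoris, with adjusted p-values of 0.00552 and 0.00201 by limma. LDHA, lactate dehydrogenase, fell in masseter by 1.86 (SE 0.39, adjusted p = 0.0112 by limma), and P4HA1, which hydroxylates collagen, rose there by 1.01 (SE 0.25, adjusted p = 0.0222 by limma). In biceps femoris HIF1AN and EGLN2, hydroxylases that restrain HIF, rose by 0.66 (SE 0.075) and 0.87 (SE 0.13), with adjusted p-values of 8.16e-04 and 0.00231 by limma, and BNIP3, a mitophagy receptor, rose by 0.63 (SE 0.14, adjusted p = 0.0174 by limma). The remaining calls, named after their values were seen, were ENO1 in masseter (-1.07, SE 0.27) and EGLN1 (-0.59, SE 0.14) and TFRC (-2.91, SE 0.67) in biceps femoris, the last encoding the transferrin receptor. EGLN1 is a HIF hydroxylase too, so the called HIF hydroxylases changed in both directions there.

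Of 12 regulators of VEGFA in muscle, 10 were measured. PPARGC1B, a coactivator of mitochondrial genes known to raise VEGFA, fell by 2.93 (SE 0.24, adjusted p = 1.79e-04 by limma) in masseter and by 3.72 (SE 0.31, adjusted p = 3.02e-04 by limma) in biceps femoris. It read 8.36 ± 0.22 and 5.43 ± 0.56 at day 1 and day 5 in masseter (SD, n = 5), and 8.18 ± 0.32 and 4.46 ± 0.66 in biceps femoris (SD, n = 4). FOXO1, a transcription factor of muscle wasting, rose in masseter by 1.49 (SE 0.44, adjusted p = 0.0447 by limma). SP1, a general transcription factor, rose in both muscles by its brightest probe set, by 1.31 (SE 0.24, adjusted p = 0.00685) and 1.30 (SE 0.26, adjusted p = 0.0103 by limma), but none of its other 4 probe sets was called. These made 2 rises and 1 fall in masseter and 1 of each in biceps femoris (medians 0.06 and -0.35).

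Of 29 Notch and BMP genes of vessels, 20 were measured, of which 3 rose in masseter (median 0.11), and 1 rose and 4 fell in biceps femoris (median -0.17). The BMP targets ID1, ID2 and ID3 rose in masseter by 3.31 (SE 0.45), 2.86 (SE 0.33) and 1.52 (SE 0.33), with adjusted p-values of 0.00156, 6.53e-04 and 0.0144 by limma. Their changes in biceps femoris were 1.25, 0.54 and 0.33, with adjusted p-values of 0.138, 0.593 and 0.610 by limma, and the difference between the muscles was not called for any of them (adjusted p of 0.168 to 0.367 by limma). In biceps femoris the Notch ligands JAG1 and DLL4 fell by 0.49 (SE 0.11) and 0.57 (SE 0.13), with adjusted p-values of 0.0152 and 0.0198 by limma. SMAD1, which relays BMP signals, fell by 1.04 (SE 0.29, adjusted p = 0.0384 by limma), and the receptor gene TGFBR1 rose by 0.47 (SE 0.11, adjusted p = 0.0234 by limma). NOTCH3, a Notch receptor of mural cells, was the fourth that fell (-0.82, SE 0.23).

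Of 20 genes listed as inhibitors of vessel growth, 13 were measured. In masseter 1 rose and 2 fell, and in biceps femoris 1 rose and 5 fell (medians -0.18 and -0.57). TIMP2, an inhibitor of matrix proteases, rose by 1.56 (SE 0.22, adjusted p = 0.00172 by limma) in masseter and by 0.74 (SE 0.14, adjusted p = 0.00760 by limma) in biceps femoris. Its second probe set changed by 0.83 in masseter (adjusted p = 0.0367 by limma) and by 0.05 in biceps femoris (adjusted p = 0.900 by limma). In biceps femoris COL4A1 and COL4A2, basement membrane collagens whose fragments inhibit vessel growth, fell by 1.02 (SE 0.18) and 0.93 (SE 0.11), with adjusted p-values of 0.00681 and 0.00100 by limma, and THBS4, a matrix protein, fell by 1.99 (SE 0.38, adjusted p = 0.00809 by limma). In masseter SERPINF1 fell by 1.99 (SE 0.43, adjusted p = 0.0129 by limma) and COL18A1, the source of endostatin, by 0.71 (SE 0.18, adjusted p = 0.0282 by limma). The others of the list that fell in biceps femoris were DLL4, given above, and TIMP3 (-0.73, SE 0.14), named after its value was seen. COL4A1 and COL4A2 are also structural parts of the vessel wall. THBS4 was counted by its place in the list, and its effect on vessel growth was not tested.

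**Figure D5:**
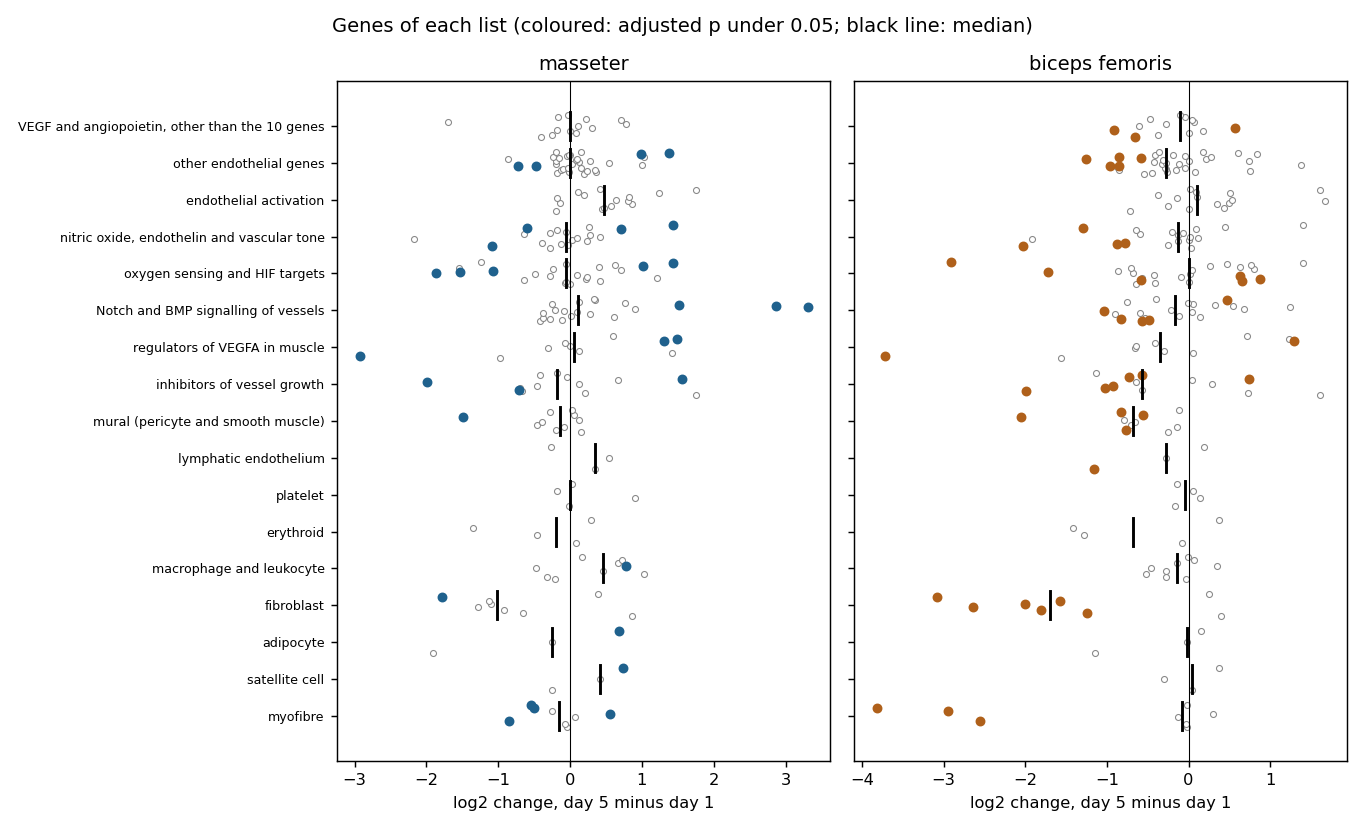
Log2 change from day 1 to day 5 (x axis) of every measured gene of each list (points; coloured where the adjusted p was under 0.05, black lines are list medians) in masseter and biceps femoris. The fibroblast genes lie furthest left as a list in biceps femoris, and ID1 and ID2 are the points furthest right in masseter.

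Markers of the other cell types were counted in the same way, to be read beside the same shares of all named genes. Of 10 measured mural genes, which mark pericytes and vascular smooth muscle, 1 fell in masseter and 4 fell in biceps femoris, where all 10 changes were negative (medians -0.14 and -0.68). CNN1, a smooth muscle calponin, fell by 1.49 (SE 0.20, adjusted p = 0.00163 by limma) and 2.05 (SE 0.51, adjusted p = 0.0273 by limma), and the pericyte gene RGS5 fell in biceps femoris by 0.77 (SE 0.13, adjusted p = 0.00414 by limma), as did KCNJ8 (-0.56, SE 0.12) and NOTCH3 (-0.82, SE 0.23). Their summed level ranged from 12.8 to 13.5 on the log2 scale in biceps femoris at day 1 and from 12.3 to 12.7 at day 5, and in masseter from 12.2 to 13.6 and from 12.31 to 12.96. Of 8 measured fibroblast genes, 6 fell in biceps femoris and 1 in masseter (medians -1.69 and -1.01). Their summed level ranged from 14.8 to 15.5 at day 1 and from 12.7 to 14.2 at day 5 in biceps femoris, and from 14.3 to 15.3 and from 12.8 to 14.8 in masseter. The changes in biceps femoris of MFAP5, COL1A1, COL1A2 and LUM, genes of the extracellular matrix, were -3.08 (SE 0.28), -2.64 (SE 0.36), -2.0 (SE 0.35) and -1.81 (SE 0.29), and that of MFAP5 in masseter was -1.78 (SE 0.30). COL3A1 (-1.57, SE 0.31) and DCN (-1.24, SE 0.25), named after their values were seen, also fell in biceps femoris.

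Of 8 measured myofibre genes, 3 fell in biceps femoris, with changes of -2.56 (SE 0.32) for MB, the oxygen-binding myoglobin, -3.82 (SE 0.95) for TNNT1 and -2.94 (SE 0.83) for MYH7, both proteins of slow fibres. The median change of the 8 genes was -0.08 in biceps femoris and -0.16 in masseter. In masseter DES rose by 0.56 (SE 0.13), and the changes of MB, TNNT3 and TNNT1 were -0.85 (SE 0.18), -0.54 (SE 0.11) and -0.50 (SE 0.14), the last not called when the animal was a block (adjusted p = 0.0982 by limma). A second TNNT3 probe set changed the other way, by 0.35 in masseter (adjusted p = 0.0819 by limma) and by 1.06 in biceps femoris (adjusted p = 0.00121 by limma). The part of mural, fibroblast and myofibre RNA in the changes of PECAM1 and CDH5 was not tested.

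Of 9 measured macrophage and leukocyte genes, TYROBP alone was called, with a rise in masseter of 0.78 (SE 0.22, adjusted p = 0.0402 by limma). A block for the animal ended that call (adjusted p = 0.0796 by limma). The list medians were 0.46 in masseter, with 3 of 9 changes negative, and -0.14 in biceps femoris, with 7 negative. An unadjusted p under 0.05 by limma was reached by 6 of the 9 in masseter, beside 28.9% of all probe sets. In biceps femoris it was reached by 0 of the 9, beside 29.7%. Of 3 measured lymphatic genes, PROX1 fell in biceps femoris by 1.16 (SE 0.25, adjusted p = 0.0142 by limma). Of 3 adipocyte genes, CFD rose in masseter by 0.69 (SE 0.16, adjusted p = 0.0165 by limma). The adipocyte list median in masseter was -0.25, with 2 of 3 changes negative and a lowest change of -1.90. Of 3 satellite cell genes, CHRDL2 rose there by 0.74 (SE 0.17, adjusted p = 0.0187 by limma), but not when blocked by animal (adjusted p = 0.0614 by limma). Of 4 erythroid genes none was called by limma in either muscle, with 1 and 2 of 4 at an unadjusted p under 0.05. No measured gene of any of the 17 lists, 188 in all, was called by limma for the difference between the muscles. Of these, 36 had an unadjusted p under 0.05, a rate to be read beside 12.3% of all probe sets. The shares of all probe sets given here were not counted with 1 probe set per gene, as the lists were.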

How the data were processed

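Total RNA had been extracted with Trizol and RNeasy columns and hybridised as biotinylated cRNA to Affymetrix porcine arrays, per the labels' protocols. The deposited log2 values were made with RMA, per the submitters' processing notes, and were used as they stand. For biceps femoris the authors also deposited their own comparison, which per the file headers holds log2 fold changes, adjusted p-values and the B-statistic, a score of log odds. Sorted values of arrays of the same muscle differed by at most 0.230 and those of different muscles by at least 0.517, so the muscles had been normalized apart.

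After 124 control probe sets were left out, 23999 were tested and 18949 had a gene name. Names came from the pig annotation, updated through RefSeq gene IDs, then from the authors' human homolog column. Each muscle was fitted by lmFit and eBayes of limma 3.58.1, with no covariates, in R 4.3.3. Tests were two-sided, and the script was tested on simulated data. The difference between muscles was a contrast in a fit of all 18 arrays. Errors of changes are SE, of levels SD. RMA gives no detection call, and the number of arrays limits the precision.

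The members and lists were chosen with earlier results of these data known. Besides the members, the rule named up to 4 called genes of smallest p per list and muscle, and the 5 genes most like the endothelial mean and VEGFA. It covers 8 pathway lists and 9 lists of other cell types. No p was computed for a list.

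Day 1 and day 5 masseter arrays of the same number came from the same animal, per the sample descriptions. Their deviations from the group means correlated by -0.03 to 0.12 across probe sets. Nothing in the labels says that biceps femoris arrays came from separate animals, and p-values there measure the spread between arrays.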

Additional observations from a re-analysis of the deposited data

Results flagged for a closer look

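In 252 sets of 4 or 5 arrays of the members and named list genes, 13 had 1 array far from the others by Dixon's ratio, about the 1 in 20 that chance gives. Among the members this was TEK in biceps femoris at day 1, where replicate 1 read 6.96 and the others 8.28 to 8.48. Biceps femoris day 5 replicate 1, the array with the high actin ratio and the high VEGFA value, stood apart in PTGIS (9.36, others 7.23 to 7.24), SMAD1 (8.02, others 8.77 to 8.91) and COL18A1 (6.52, others 7.43 to 7.59). Biceps femoris day 1 replicate 4, the day 1 array of low BioC, stood apart in PGK1 (13.74, others 13.48 to 13.52), LDHA (13.94, others 13.76 to 13.77) and MYH7 (13.87, others 14.14 to 14.16). In masseter, single arrays stood apart in HMOX1 at day 1 (7.40, others 6.60 to 6.75), in MB at day 1 (13.70, others 14.28 to 14.40) and at day 5 (12.74, others 13.39 to 13.62), and at day 5 in PTGS1 (5.13, others 4.87 to 4.94), SMAD1 (9.55, others 8.67 to 8.89) and COL18A1 (6.62, others 7.38 to 7.57).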

How the results depend on the processing

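In masseter the count of called members stayed at 1 except for 2 with array weights (VWF and VEGFA), 2 at an adjusted p under 0.10, and a range of 1 to 2 without single arrays. With all probe sets averaged it was also 1, but that gene was ENG (change -0.62, adjusted p = 0.0167 by limma), whose mean includes the probe set of the other locus, and VWF was not called. In biceps femoris the count of 2 became 1 in 1 fit of all 18 arrays (PECAM1), 0 with the BioC arrays as a block, 0 with the replicate block, whose numbers name no animals there and correlated by -0.21 to 0.11, and 0 to 3 without single arrays. The difference between muscles called 0 members under every alternative run. Over all probe sets, masseter calls ranged from 2047 to 4628 without single arrays, biceps femoris calls fell from 4117 to 1306 with the BioC block, and difference calls went from 48 to 17 with further quantile normalization, 24 with trend and robust fitting, 527 with array weights, 0 with the replicate block (the animal in masseter, the replicate number in biceps femoris), 183 at an adjusted p under 0.10, and 9 to 266 without single arrays. The replicate block changed no masseter call of a member. The cause of these shifts was not tested.

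Signs of uncalled members turned in some settings. With all probe sets averaged, the difference turned to -0.0435 for KDR, 0.14 for FLT1, -0.0856 for TEK and -0.60 for ENG, and TEK turned within both muscles, to -0.0233 in masseter and 0.0623 in biceps femoris. ANGPT1 in biceps femoris turned to -0.58, its probe sets having opposite signs. TEK in biceps femoris turned to 0.12 with array weights and FLT1 there to 0.0259 with the BioC block. The ENG difference turned to -0.0047 with further normalization and -0.0261 with array weights. Without single arrays, masseter changes ranged from -0.39 to 0.0302 for PECAM1, -0.49 to 0.0161 for CDH5, -0.39 to 0.23 for KDR, -0.0284 to 0.24 for TEK and -0.25 to 0.0489 for NOS3, the biceps femoris change of TEK from -0.52 to 0.14, and the differences from -0.0820 to 0.55 for KDR, -0.22 to 0.0253 for FLT1, -0.20 to 0.14 for ENG, -0.25 to 0.85 for VEGFA and -0.0674 to 0.28 for NOS3. Of the named list genes, 30 of 37 in biceps femoris and 25 of 29 in masseter were still called with the replicate block, and 31 and 22 with probe sets averaged. The number of arrays limits all of these results.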
